A study of Mus musculus with 3 samples.

Results

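Proliferating epithelial cells were examined in 3 droplet single-cell RNA libraries of mouse lung taken 4 weeks after bleomycin, a drug that injures the alveolar epithelium. A cell barcode counted as a cycling epithelial cell when it had at least 500 detected genes, at most 15% mitochondrial counts, at least 3 of the 5 genes Mki67, Top2a, Birc5, Ube2c and Cdk1 with a unique molecular identifier (UMI), at least 1 Epcam UMI and 0 Ptprc UMIs. Epcam marks epithelium and Ptprc marks leukocytes. The rule found 277 cells among 10457 barcodes past the gene and mitochondrial limits, of which 6537 had Epcam without Ptprc. The members were thus chosen by the measured UMIs of these 7 genes. They numbered 117 in Club-Tracer, 52 in BASC-Tracer and 108 in AT2-Tracer, the names of the 3 libraries.

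All mice had the genotype Scgb1a1-CreER;Sftpc-DreER;R26-TLR and all had received bleomycin, so no uninjured group was analysed here. The R26-TLR allele is a reporter in the Rosa26 locus, which marks cells in which the Scgb1a1-driven recombinase Cre, the Sftpc-driven recombinase Dre, or both have acted. Whole lung was digested with proteases and sorted by fluorescence alone, into tdTomato-positive cells (Club-Tracer), cells positive for both colours (BASC-Tracer) and ZsGreen-positive cells (AT2-Tracer). Scgb1a1 is the secretoglobin of airway club cells, Sftpc is surfactant protein C of alveolar type 2 (AT2) cells, and bronchioalveolar stem cells (BASCs) carry both at the junction of airway and alveolus. A colour records past recombination and not the present state of a cell. There was 1 library per lineage, no label gives the number or age of the mice, and no test between libraries was possible. Intervals below are 95% intervals that cover counting error only.

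In the injured lung AT2 cells are known to divide and to pass through a keratin 8-high transitional state on the way to flat alveolar type 1 (AT1) cells, while club cells renew the airway and give rise to ciliated cells. Mki67 encodes the Ki-67 protein that coats mitotic chromosomes, Top2a the topoisomerase that untangles replicated DNA, Birc5 the chromosomal passenger survivin, Ube2c a ubiquitin-conjugating enzyme of the anaphase-promoting complex, and Cdk1 the kinase that drives entry into mitosis. Late cell cycle genes of this kind are repressed in resting cells by the DREAM complex through an element called CHR and are activated later in the cycle through CCAAT boxes.

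The promoters of the 5 genes are shown because these genes chose the cells. Each line is 130 bases directly before the RefSeq gene start in build GRCm38.p6, 5′ to 3′ on the strand of the gene. Capitals mark the CHR letters TTTGAA or their reverse complement TTCAAA, and the CCAAT letters or their reverse complement ATTGG.
Mki67 (chr7:135716380-135716509, minus strand): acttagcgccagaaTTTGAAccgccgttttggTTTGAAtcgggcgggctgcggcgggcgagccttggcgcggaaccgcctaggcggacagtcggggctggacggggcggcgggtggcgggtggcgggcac
Top2a (chr11:99024190-99024319, minus strand): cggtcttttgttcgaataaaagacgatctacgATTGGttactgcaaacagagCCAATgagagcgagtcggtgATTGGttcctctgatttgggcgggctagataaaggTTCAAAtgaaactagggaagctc
Birc5 (chr11:117849107-117849236, plus strand): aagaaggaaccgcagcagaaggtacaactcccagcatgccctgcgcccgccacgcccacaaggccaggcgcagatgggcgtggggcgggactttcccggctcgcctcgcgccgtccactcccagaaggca
Ube2c (chr2:164769799-164769928, plus strand): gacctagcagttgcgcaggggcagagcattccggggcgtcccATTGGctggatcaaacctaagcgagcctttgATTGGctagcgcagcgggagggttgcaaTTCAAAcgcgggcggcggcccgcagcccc
Cdk1 (chr10:69352913-69353042, minus strand): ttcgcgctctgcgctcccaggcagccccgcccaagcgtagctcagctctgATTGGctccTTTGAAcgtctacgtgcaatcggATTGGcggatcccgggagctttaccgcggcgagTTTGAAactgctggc

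In the 250 bases before the start, searched on both strands, 4 of the 5 rule genes held TTTGAA and 4 held CCAAT. Over all 27025 genes with a RefSeq promoter the shares were 18.3% for TTTGAA, 37.5% for CCAAT and 6.45% for both. Among the 47 of 56 mitosis genes with a promoter in the table, 13 held TTTGAA (27.7%), 32 held CCAAT (68.1%) and 11 held both (23.4%). Among the 30 of 37 replication genes with a promoter, 5 held TTTGAA (16.7%), 17 held CCAAT (56.7%) and 3 held both (10%). These are letter matches in a window and not binding sites.

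The libraries as deposited held 62570890, 29013077 and 72256580 UMIs over 16627 barcodes in all, and 3196, 1402 and 5859 barcodes passed the limits in the Club-Tracer, the BASC-Tracer and the AT2-Tracer library. Some kept barcode sequences occurred in a pair of libraries (6 in Club-Tracer and BASC-Tracer, 23 in Club-Tracer and AT2-Tracer, 14 in BASC-Tracer and AT2-Tracer), but no cycling cell shared its barcode with a cycling cell of another library. Scrublet, a doublet caller, marked 1 of the 277 cycling cells. A further 3, 2 and 55 kept barcodes passed the 3-gene rule but had Ptprc and were not members. Of 15 macrophage and monocyte genes, 3 or more genes other than Lyz2 and Cd74, which AT2 cells also express, were seen in 0 Club-Tracer, 0 BASC-Tracer and 7 AT2-Tracer members. Summed over that list, cycling cells held 2257, 6046 and 7789 CPM (the group's UMIs of those genes per 1000000 of its UMIs), against 5950, 7770 and 10479 CPM in non-cycling epithelial cells and 21819, 50038 and 60140 CPM in leukocyte or endothelial barcodes without Epcam. The macrophage genes with a UMI in cycling cells were 8, 10 and 14 of the 15, Lyz2 and Cd74 made up most of the sums, and Adgre1 was at 0 in Club-Tracer and BASC-Tracer. Leaving out cells with 3 or more of the macrophage genes gave cycling shares of 4.55%, 5.54% and 3.67%, within the counting intervals of the shares given next, and their part in the other results was not tested. The lymphocyte, endothelial, fibroblast and smooth muscle, and neuroendocrine and tuft lists summed to at most 36.1 CPM in the cycling cells of any library, and Cd3e, Cd3d and Cdh5 were at 0 in all 3.

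Cycling cells made up similar small shares of the epithelial barcodes in all libraries. They were 4.54% in Club-Tracer (3.77 to 5.41), 5.42% in BASC-Tracer (4.08 to 7.05) and 3.60% in AT2-Tracer (2.96 to 4.33), and the intervals overlapped. Just inside the rule, with exactly 3 of the 5 genes, lay 39, 28 and 54 of these cells. Just outside it, with exactly 2, lay 77, 30 and 72 epithelial barcodes. All 5 genes were seen in 45, 14 and 36 cells.

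The cycling cells were also the deeply read cells. Their median was 38805 UMIs in Club-Tracer, 44202.5 in BASC-Tracer and 25977 in AT2-Tracer, against 16924, 20381.5 and 12793.5 in epithelial barcodes with none of the 5 genes, which are called non-cycling below. The ratio of medians was 2.29, 2.17 and 2.03. The depth of a cell and its RNA content cannot be told apart here. When every cell was thinned to 3000 UMIs, the same rule kept 34 of 2474 Club-Tracer epithelial barcodes (1.37%, 0.954 to 1.92), 11 of 892 BASC-Tracer barcodes (1.23%, 0.617 to 2.20) and 35 of 2739 AT2-Tracer barcodes (1.28%, 0.892 to 1.77). These intervals overlapped at equal depth too.

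The 5 rule genes are given as a description, since they chose the cells. Mki67 was at 205 CPM in Club-Tracer cycling cells, 240 CPM in BASC-Tracer and 361 CPM in AT2-Tracer. In single cells it ranged from 0 to 47 UMIs with a median of 3 in Club-Tracer, from 0 to 90 with a median of 3.5 in BASC-Tracer, and from 0 to 45 with a median of 6 in AT2-Tracer. Mki67 was also the rule gene with the most signal outside the epithelium. It was at 25.6, 68.6 and 60.4 CPM in leukocyte or endothelial barcodes, where each of the others was at 8.54 CPM or less. These barcodes, with fewer than 3 rule genes, serve below as a background measure of free RNA. Their own Mki67 message cannot be told apart from free RNA here. Top2a was at 203 CPM in Club-Tracer, 145 CPM in BASC-Tracer and 200 CPM in AT2-Tracer cycling cells. It was the rule gene most often missing from members in each library, being seen in 80 of 117 cells (68.4%) in Club-Tracer, 28 of 52 (53.8%) in BASC-Tracer and 64 of the 107 cells (59.8%) in AT2-Tracer that had at least 3000 UMIs. Ube2c was at 276 CPM in Club-Tracer, 280 CPM in BASC-Tracer and 320 CPM in AT2-Tracer. Birc5 was at 220, 152 and 222 CPM and Cdk1 at 189, 135 and 177 CPM in the same order of libraries.

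Cell cycle genes that the rule did not name had the same pattern, which follows from the choice of cells and is not evidence for it. Rrm2, the ribonucleotide reductase subunit made in S phase, was at 98.8, 33.7 and 108 CPM in cycling cells of the Club-Tracer, the BASC-Tracer and the AT2-Tracer library, against 1.13, 1.54 and 1.26 CPM in non-cycling cells. Mcm6, part of the replicative helicase, was at 94.6, 73.9 and 87.2 CPM, against 12.5, 13.4 and 15 CPM. Ccnb2, a mitotic cyclin, was at 145, 120 and 153 CPM, against 0.383, 0.740 and 0.573 CPM. Cdc20, which activates the anaphase-promoting complex, was at 166, 156 and 204 CPM, against 3.49, 5.01 and 4.67 CPM. Both replication and mitosis genes were thus high in each library. Ccnd1, the cyclin D of the G1 phase, was far less different, at 681, 647 and 741 CPM in cycling and 428, 407 and 410 CPM in non-cycling cells.

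Mitosis genes stood higher against replication genes in cycling than in non-cycling cells of every library. Over 56 mitosis genes outside the rule (mitotic cyclins and kinases, spindle and kinetochore, anaphase promotion) cycling cells held 3915 CPM in Club-Tracer, 3184 CPM in BASC-Tracer and 4190 CPM in AT2-Tracer, against 300, 316 and 370 CPM in non-cycling cells. Over 37 replication genes (licensing, replisome and nucleotide supply) they held 1841, 1256 and 1835 CPM, against 275, 310 and 355 CPM. The mitosis sum was 2.13 times the replication sum in Club-Tracer (2.07 to 2.18), 2.54 times in BASC-Tracer (2.43 to 2.64) and 2.28 times in AT2-Tracer (2.21 to 2.36), against 1.09, 1.02 and 1.04 times in non-cycling cells. The rule genes are themselves known to peak in G2 and mitosis, so these ratios are a description and their dependence on the rule was not tested. After thinning, more mitosis than replication UMIs were seen in 85 of 117 Club-Tracer cells (72.6%), 37 of 52 BASC-Tracer cells (71.2%) and 84 of 107 AT2-Tracer cells (78.5%), where the mitosis list is the longer one and no value marks an even balance.

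The lineage program of each cycling cell was then read from 7 marker lists, after thinning to 3000 UMIs, which left 276 members. A cell's score for a program was the share of its 8 to 10 genes with a UMI, and a program led when its score was at least 0.3 and at least 0.1 above the next. Sftpc and Scgb1a1, whose promoters drive the recombinases, were kept out of the lists. A lead is a range of a score and not a cell type. In the Club-Tracer, the BASC-Tracer and the AT2-Tracer library 27, 9 and 14 cells lay less than 0.1 from a limit. Cells exactly 0.1 away, such as those with tied highest scores, are not in that count, so it understates the cells near a limit.

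**Figure D1:**
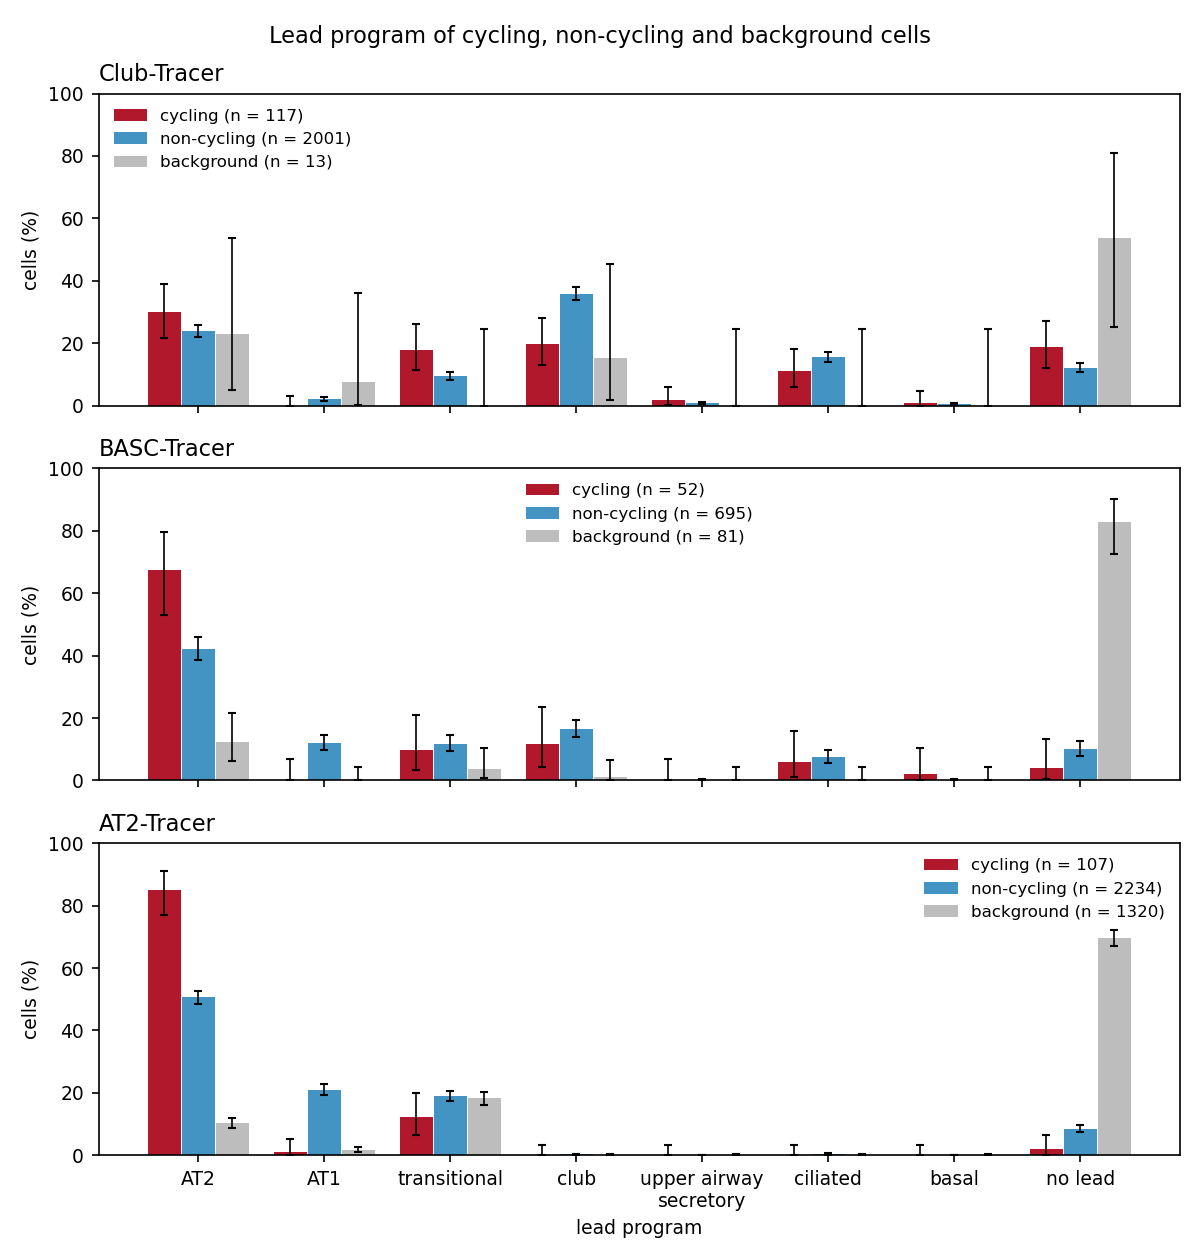
Share of cells (%) with each lead program in each library, for cycling and non-cycling epithelial cells and for the free-RNA background barcodes, all thinned to 3000 UMIs. The AT2 program leads 29.9%, 67.3% and 85.0% of cycling cells in the Club-Tracer, the BASC-Tracer and the AT2-Tracer library, and only the first 2 libraries hold cycling cells led by airway programs.

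The cycling cells of the AT2-Tracer library were alveolar, and those of the Club-Tracer library were spread over alveolar and airway programs. In AT2-Tracer the AT2 program led 91 of 107 cycling cells (85.0%, 76.9 to 91.2), the transitional program led 13 (12.1%, 6.63 to 19.9), the AT1 program led 1 and no program led 2. No cell was led by the club, upper airway secretory, ciliated or basal program, which allows a share of up to 2.80% for each. In BASC-Tracer the AT2 program led 35 of 52 cells (67.3%, 52.9 to 79.7), the club program 6 (11.5%), the transitional program 5 (9.62%), the ciliated program 3 (5.77%), the basal program 1, and no program 2. In Club-Tracer the AT2 program led 35 of 117 cells (29.9%, 21.8 to 39.1), the club program 23 (19.7%, 12.9 to 28.0), the transitional program 21 (17.9%, 11.5 to 26.1), the ciliated program 13 (11.1%, 6.05 to 18.3), the upper airway secretory program 2, the basal program 1 and no program 22 (18.8%). No AT1-led cycling cell was seen in Club-Tracer or BASC-Tracer. The ciliated-led cells are counted as cycling by the rule alone and are taken up below.

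Non-cycling cells of the same libraries had other mixtures. In AT2-Tracer the AT2 program led 50.7% and the AT1 program 21.1% of 2234 non-cycling cells. In BASC-Tracer the AT2 program led 42.2%, the club program 16.5% and the AT1 program 11.9% of 695 cells. In Club-Tracer the club program led 35.8%, the AT2 program 23.8% and the ciliated program 15.4% of 2001 cells. The AT2 lead was thus commoner in cycling than in non-cycling cells of BASC-Tracer (67.3% against 42.2%) and AT2-Tracer (85.0% against 50.7%), beyond counting error but with the rule applied at unequal depth. In Club-Tracer the interval of the cycling share covers the non-cycling share (29.9% against 23.8%). Among epithelial cells with 1 or 2 of the rule genes, the AT2 program led 43.0% in Club-Tracer, 60.7% in BASC-Tracer and 71.6% in AT2-Tracer. With the rule applied after thinning, 8 of 34, 7 of 11 and 28 of 35 cells past it were AT2-led, in the same order of libraries. The part of depth in these shares was not tested.

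The share of free-RNA background barcodes led by the AT2 program was 3 of 13 in Club-Tracer (23.1%, 5.04 to 53.8), 10 of 81 in BASC-Tracer (12.3%) and 136 of 1320 in AT2-Tracer (10.3%), so the AT2 lead of Club-Tracer cycling cells cannot be set apart from so small a background by share alone. The median depth of these barcodes before thinning was 4622, 10616 and 8877.5 UMIs. Lamp3, a protein of the surfactant-storing lamellar bodies, stood at 222 CPM in the AT2-led Club-Tracer cycling cells. It was at 0 in the 28 background barcodes of that library, whose limit for a count of 0 is 25.6 CPM. The other 9 of the 10 AT2 genes had a UMI in that background, where the list summed to 1017 CPM. All cycling cells of Club-Tracer held 11143 CPM of the list. The transitional lead was commoner in AT2-Tracer background barcodes (241 of 1320, 18.3%) than in cycling cells (12.1%), so the share alone does not set these cycling cells apart from background. The genes behind the lead differed in level: Krt8 was at 3097 CPM and Cldn4, a tight junction protein, at 867 CPM in the 13 transitional-led AT2-Tracer cycling cells, against 13.5 and 1.75 CPM in the background, where Lgals3 (2546 CPM) and Plaur (512 CPM), genes that macrophages also express, were high. No background barcode had a ciliated, basal or upper airway lead.

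The lead of a single cell depended on which UMIs the thinning kept. Over 10 further draws, 46 of 117 Club-Tracer cells (39.3%), 30 of 52 BASC-Tracer cells (57.7%) and 75 of 107 AT2-Tracer cells (70.1%) kept the same lead every time. The totals moved less, with 33 to 42 AT2-led cells in Club-Tracer, 31 to 36 in BASC-Tracer and 83 to 91 in AT2-Tracer. Club-led cells numbered 20 to 25 in Club-Tracer and ciliated-led cells 11 to 13, whereas the transitional-led cells ranged from 21 to 32.

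Many cells carried parts of 2 programs. A score of at least 0.5 for both the AT2 and the transitional program was found in 24 of 117 cycling cells in Club-Tracer (20.5%), 13 of 52 in BASC-Tracer (25%) and 35 of 107 in AT2-Tracer (32.7%), against 7.60%, 10.8% and 18.8% of non-cycling cells and 0 of 13, 0 of 81 and 2 of 1320 background barcodes. A score of at least 0.5 for both the AT2 and the club program went the other way, with 11 of 117 cycling cells in Club-Tracer (9.40%), 4 of 52 in BASC-Tracer (7.69%) and 0 of 107 in AT2-Tracer, against 24.8%, 15% and 0.448% of non-cycling cells. In the Club-Tracer library the median cycling cell scored 0.4 for AT2, 0.4 for transitional and 0.3 for club genes, against 0.4, 0.3 and 0.5 in the median non-cycling cell.

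**Figure D2:**
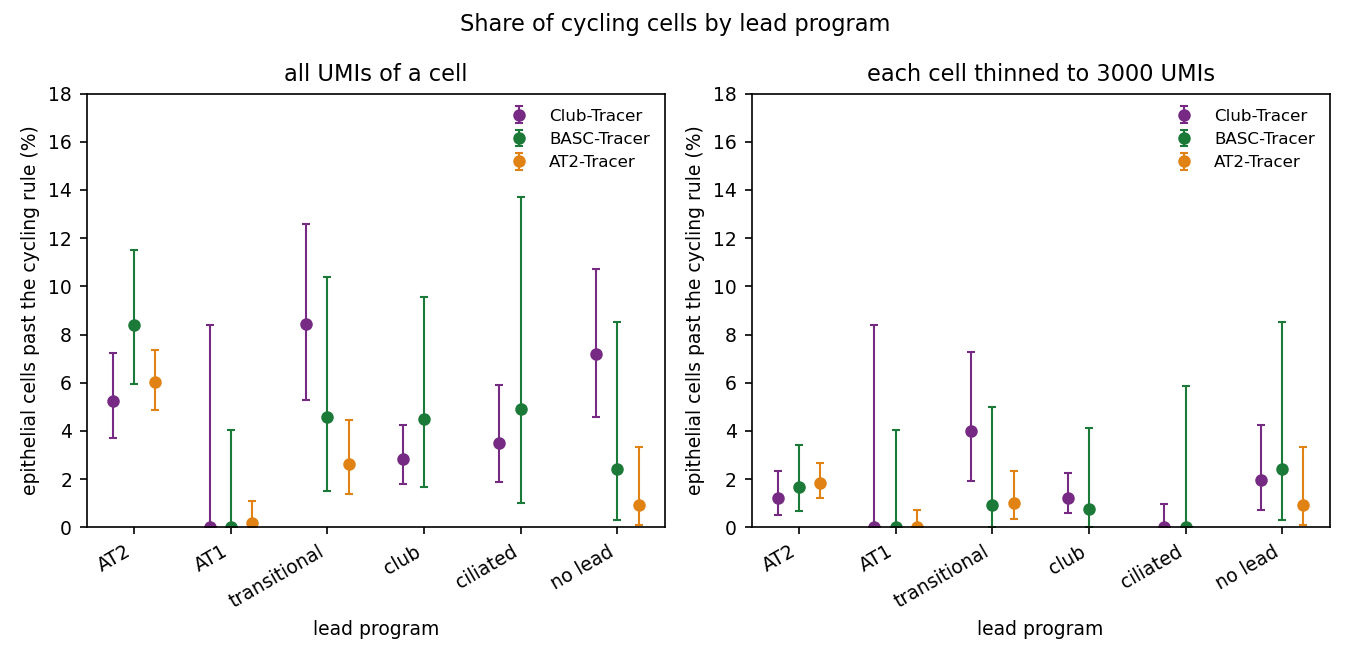
Share of epithelial cells (%) that pass the cycling rule within each lead program, by library, with 95% exact binomial intervals, for all UMIs of a cell (left) and after thinning to 3000 UMIs (right). AT1-led cells sit at or near 0 in all libraries, and transitional-led cells of Club-Tracer are at 8.43% and 4.02% in the left and the right panel.

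Seen from the programs, AT2-led cells cycled in all 3 libraries. Of AT2-led epithelial cells 35 of 665 cycled in Club-Tracer (5.26%, 3.69 to 7.24), 35 of 416 in BASC-Tracer (8.41%, 5.93 to 11.5) and 91 of 1508 in AT2-Tracer (6.03%, 4.89 to 7.36), and at equal depth 1.20%, 1.68% and 1.86% did. Among AT1-led cells, which are known to be post-mitotic as a rule, 0 of 42 cycled in Club-Tracer, 0 of 89 in BASC-Tracer and 1 of 501 in AT2-Tracer (0.200%). The zeros allow up to 7.14% and 3.37%, and AT1-led cells were also shallower, with medians of 9853.5, 12706 and 8835 UMIs against 25392, 29371.5 and 17857 in AT2-led cells. The part of depth in this difference was not tested.

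Transitional-led cells and cells led by airway programs also passed the rule. Of transitional-led cells 21 of 249 cycled in Club-Tracer (8.43%, 5.30 to 12.6), 5 of 109 in BASC-Tracer (4.59%) and 13 of 496 in AT2-Tracer (2.62%, 1.40 to 4.44), and after thinning 4.02% did in Club-Tracer (1.94 to 7.26) and 1.01% in AT2-Tracer. Of club-led cells 23 of 808 cycled in Club-Tracer (2.85%, 1.81 to 4.24) and 6 of 133 in BASC-Tracer (4.51%). After thinning 1.24% of club-led cells did in Club-Tracer (0.595 to 2.26), close to the 1.20% of AT2-led cells there, and 0.752% in BASC-Tracer. Of ciliated-led cells 13 of 371 passed in Club-Tracer (3.50%) and 3 of 61 in BASC-Tracer (4.92%), and none of them after thinning.

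The reporters followed the sort colours. After thinning, among cycling cells tdT was seen in 67.5% in Club-Tracer, 92.3% in BASC-Tracer and 0% in AT2-Tracer, against 57.1%, 73.1% and 0.448% of non-cycling cells and 0%, 4.94% and 0% of background barcodes. ZsGFP was seen in 4.27%, 98.1% and 99.1% of cycling cells, against 7.20%, 95.1% and 97.6% of non-cycling cells and 7.69%, 14.8% and 13.5% of background barcodes. The Club-Tracer background value is 1 of 13 barcodes. All 5 Club-Tracer cycling cells with ZsGFP were AT2-led (5 of 35, with up to 5 UMIs), and before thinning, at unequal depth, ZsGFP was seen in 41.0% of cycling cells of that library, against 26.9% of non-cycling cells and 7.69% of background barcodes. Scgb1a1 was seen in 99.1%, 80.8% and 6.54% of cycling cells and in 100%, 77.8% and 7.73% of background barcodes, which makes its mere presence uninformative. Sftpc was seen in 42.7%, 76.9% and 98.1% of cycling cells, against 46.2%, 46.9% and 74.2% of background barcodes.

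Median levels of Sftpc and Scgb1a1 differed between some programs within the Club-Tracer library, but their ranges overlapped. Sftpc had a median of 39 thinned UMIs in the 35 AT2-led cycling cells of Club-Tracer (0 to 570, seen in 27), 82 in the 35 AT2-led cells of BASC-Tracer (0 to 348, seen in 30) and 227 in the 91 AT2-led cells of AT2-Tracer (17 to 432, seen in all 91). The 3 ranges overlapped and the medians ran up from Club-Tracer to AT2-Tracer. In the 21 transitional-led and 23 club-led cycling cells of Club-Tracer the median Sftpc was 0, with highest values of 3 and 7 UMIs. In the 13 transitional-led cells of AT2-Tracer the median was 22 (0 to 150). Scgb1a1 had a median of 774 UMIs in club-led (11 to 1517), 24 in AT2-led (1 to 993) and 26 in transitional-led (0 to 449) cycling cells of Club-Tracer, and of 2 in AT2-led cells of BASC-Tracer (0 to 405). In background barcodes of Club-Tracer it had a median of 9. The tdT transcript was seen in 30 of 35 AT2-led, 14 of 21 transitional-led, 9 of 23 club-led and 8 of 13 ciliated-led cycling cells of Club-Tracer.

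**Figure D3:**
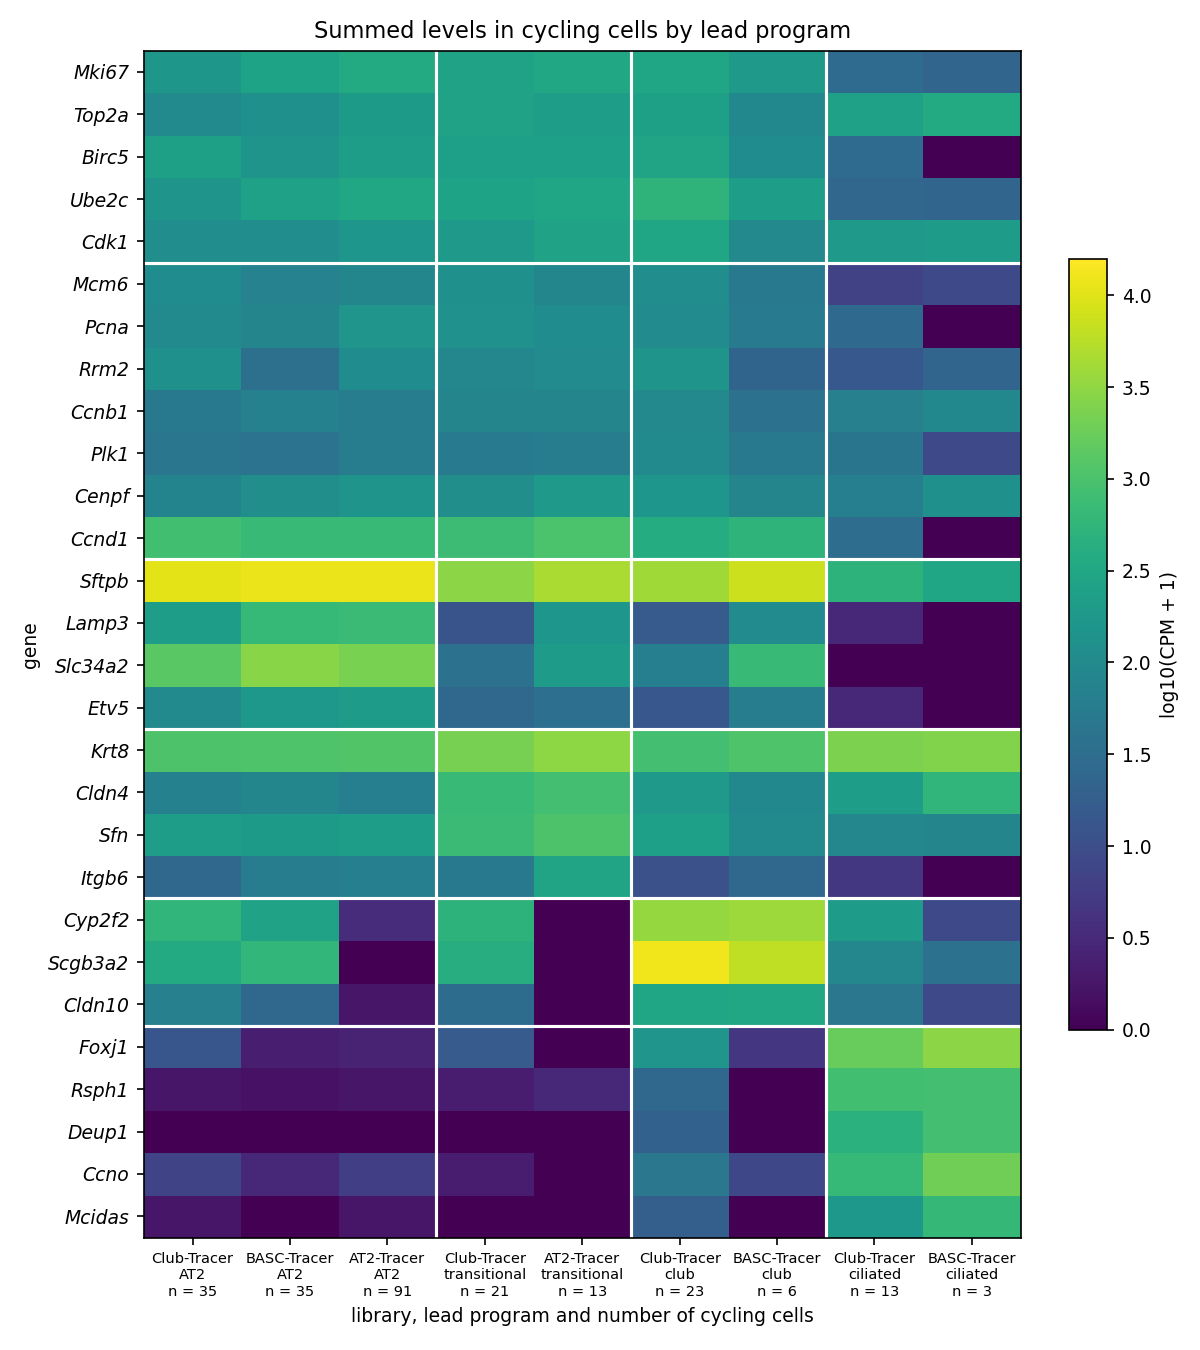
Level of program genes in cycling cells by library and lead program, as log10(CPM + 1). Among the columns drawn, Lamp3 and Sftpb are highest in AT2-led cells, Cldn4 and Sfn in transitional-led cells of Club-Tracer and AT2-Tracer, and Cyp2f2 and Scgb3a2 in club-led cells.

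The AT2 program was partly lower in AT2-led cycling cells of Club-Tracer than in those of AT2-Tracer. Past a 2-fold difference of (CPM + 5), 3 of its 10 genes were lower in Club-Tracer (S100g, Lamp3 and Etv5, median of the 10 -0.67 on the log2 scale), where 5.73% of all genes were, and none was past it in BASC-Tracer (median -0.19). The lead was chosen by detection of these genes, so this is a description. Surfactant protein B (Sftpb) was at 10800, 11958 and 11888 CPM in AT2-led cycling cells of the Club-Tracer, the BASC-Tracer and the AT2-Tracer library. Slc34a2, the phosphate transporter of AT2 cells, was at 1321, 2888 and 2244 CPM and Lamp3 at 222, 662 and 735 CPM, with Club-Tracer lowest in both. Etv5, a transcription factor that AT2 cells need to keep their identity, was at 102, 170 and 209 CPM. The club genes Cyp2f2, a cytochrome P450, and Scgb3a2, a secretoglobin, were at 580 and 372 CPM in the AT2-led cells of Club-Tracer and at 260 and 610 CPM in those of BASC-Tracer, while Scgb3a2 was at 0 in those of AT2-Tracer, whose limit for a count of 0 is 1.23 CPM.

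Levels of program genes in club-led cycling cells are given as a description, since the lead was chosen by detection of such genes. In the club-led cycling cells of Club-Tracer, Cyp2f2 was at 3416 CPM, Scgb3a2 at 13064 CPM, Cldn10 at 306 CPM and Lamp3 at 15.2 CPM. The 6 club-led cells of BASC-Tracer had Cyp2f2 at 3852 CPM and Scgb3a2 at 6181 CPM. Pooled, they held Sftpb at 7704 CPM, Slc34a2 at 671 CPM and Sftpc at 13765 CPM. In them Sftpc ranged from 0 to 131 thinned UMIs with a median of 0.5. Before thinning 1 cell held 3855 Sftpc UMIs and each of the others 0 to 13, so the Sftpc value rests on 1 cell.

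Cycling cells were next set against non-cycling cells of the same library and the same lead. Genes with at least 50 CPM on either side were called apart past a 2-fold difference of (CPM + 5), and differences below are log2 of that ratio. The contrast is the one the rule used, so the counts describe the cells and support nothing. In AT2-led cells 457 of 3007 genes were apart in Club-Tracer (15.2%), 274 of 3365 in BASC-Tracer (8.14%) and 211 of 3260 in AT2-Tracer (6.47%). Of these, 371 were higher and 86 lower in Club-Tracer (12.3% and 2.86% of genes), 188 and 86 in BASC-Tracer (5.59% and 2.56%), and 175 and 36 in AT2-Tracer (5.37% and 1.1%). The median of all genes was itself shifted up by 0.36, 0.17 and 0.10 in cycling cells. After scaling by that median the higher and lower genes were 158 and 206 in Club-Tracer, 133 and 132 in BASC-Tracer, and 153 and 46 in AT2-Tracer. Directions below are therefore read against these shifts.

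Replication and mitosis lists were higher in every library, and the G1/S list was less different. Among replisome genes 12 of 12 measured were higher in Club-Tracer (median 2.79), 3 of 3 in BASC-Tracer (2.24) and 10 of 10 in AT2-Tracer (2.25), out of 28 in the list. Among the 29 spindle and kinetochore genes 11 of 11, 11 of 11 and 15 of 15 measured were higher, with medians of 3.50, 3.58 and 3.71. Of 14 G1/S cyclin and E2F genes 2 of 4 measured were higher in Club-Tracer (median 0.98), 0 of 3 in BASC-Tracer (0.48) and 0 of 3 in AT2-Tracer (0.66). A gene that passed the 50 CPM limit only through the cycling cells had to differ, so whole-list sums carry more: the replisome list held 1227, 802 and 1173 CPM in cycling cells, against 156, 202 and 211 CPM, and the spindle list 1365, 1372 and 1837 CPM, against 55.7, 58.9 and 49.8 CPM. Among the 10 highest genes outside the lists in each library were Pclaf and Knstrn, which passed the 50 CPM limit only through the cycling cells. Pclaf, which binds the replication clamp, was at 128, 64.2 and 76.8 CPM, against 0.258, 0.504 and 0.252 CPM, and Knstrn, a spindle protein, at 78.6, 63.5 and 79.2 CPM, against 0.859, 1.01 and 0.555 CPM.

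**Figure D4:**
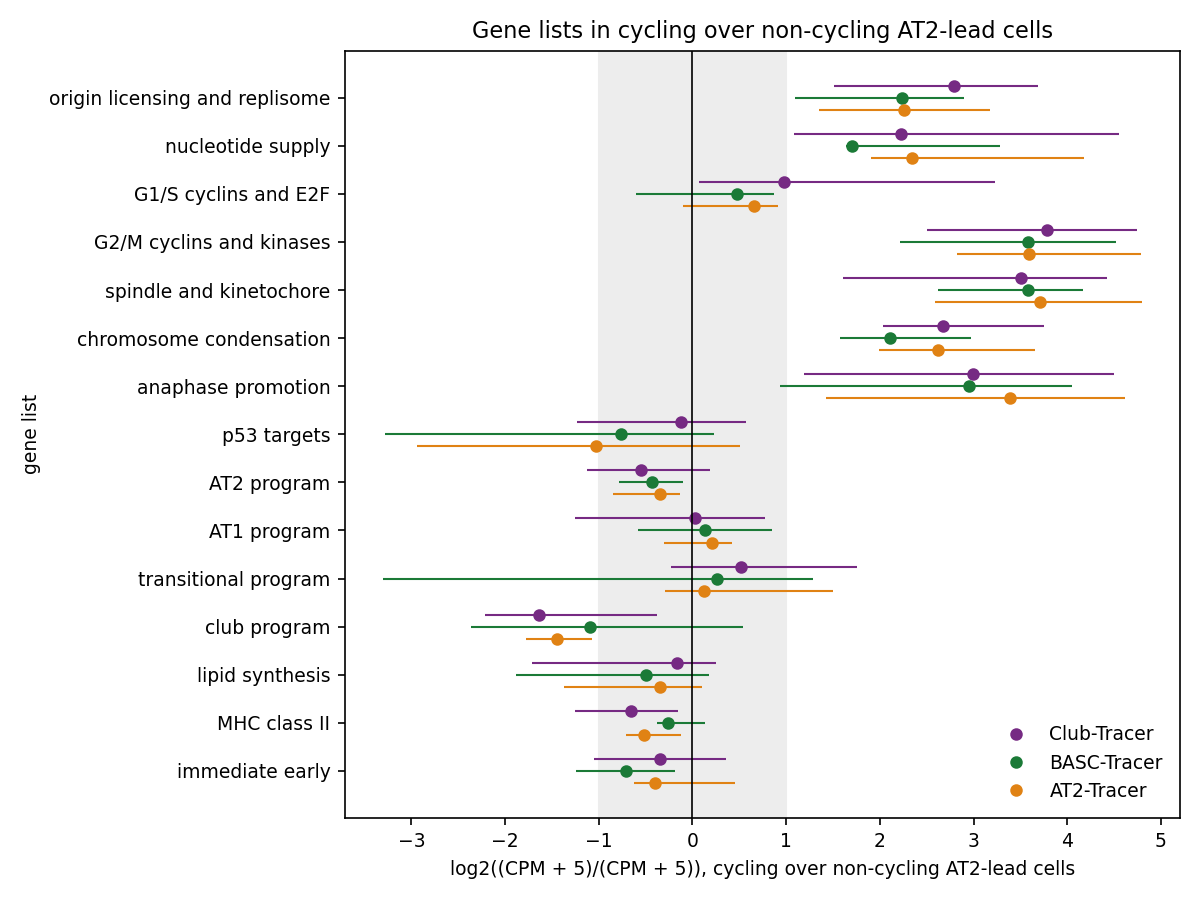
Median log2 difference of each gene list, cycling over non-cycling AT2-led cells of each library, with the range of its measured members as a line and differences short of 2-fold shaded. The replisome, nucleotide, G2/M, spindle, condensation and anaphase lists lie between 1.70 and 3.79, the G1/S list between 0.48 and 0.98, and the AT2 and p53 lists lie below 0.

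The message of the cell cycle inhibitor p21 was lower in cycling cells of every library. The p53 target list, which includes the p21 gene, also summed lower, least so in Club-Tracer. Cdkn1a, which encodes p21, was at 147, 253 and 282 CPM in AT2-led cycling cells of the Club-Tracer, the BASC-Tracer and the AT2-Tracer library, against 353, 628 and 779 CPM in non-cycling cells (differences of -1.24, -1.29 and -1.45). Of p53 targets 0 were higher and 1 of 5 measured was lower in Club-Tracer (median -0.12), 4 of 8 in BASC-Tracer (-0.77) and 4 of 8 in AT2-Tracer (-1.03), where 2.86%, 2.56% and 1.1% of all genes were lower. Gdf15, a stress-induced cytokine, was at 10.9, 3.14 and 8.62 CPM, against 21.0, 74.3 and 99.3 CPM. Trp53inp1, a p53 cofactor, was at 7.78, 17.0 and 16.0 CPM, against 32.1, 54.6 and 57.0 CPM. Gdf15 and Trp53inp1 stayed under 50 CPM in Club-Tracer and were not counted there. In BASC-Tracer and AT2-Tracer they passed that limit only through the non-cycling cells, so they had to be lower. Summed over the list, p53 targets held 740, 898 and 859 CPM in cycling cells and 907, 1495 and 1739 CPM in non-cycling cells. Phlda3, a p53 target that restrains Akt, was at 50.6, 32.1 and 43.9 CPM, against 55.3, 74.1 and 108 CPM, so Club-Tracer cells differed little in it.

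The AT2 program was kept at a somewhat lower level in cycling AT2-led cells. Its 10 genes had medians of -0.55 in Club-Tracer, -0.43 in BASC-Tracer and -0.35 in AT2-Tracer, with 1, 0 and 0 of 10 lower past 2-fold and none higher. Summed, they held 23641, 30055 and 28441 CPM in cycling cells, against 36689, 38692 and 38715 CPM in non-cycling cells. Scd1, a fatty acid desaturase, was at 888, 1095 and 1360 CPM, against 2930, 4052 and 3538 CPM, while of the other 12 or 13 lipid synthesis genes measured at most 1 was past 2-fold in any library. Lyz2, a lysozyme of AT2 cells and macrophages, was at 5941, 6621 and 5482 CPM, against 16666, 13424 and 11206 CPM.

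The transitional list as a whole lay close to the shift of all genes in cycling AT2-led cells. Its measured members had medians of 0.51 in Club-Tracer (2 of 8 higher, 0 lower), 0.27 in BASC-Tracer (1 of 9 higher, 1 lower) and 0.12 in AT2-Tracer (1 of 9 higher, 0 lower). Krt8, the keratin that names the transitional state, was at 1049, 1103 and 1136 CPM, against 612, 607 and 713 CPM, differences of 0.77, 0.86 and 0.67 that fell short of 2-fold. Clu, clusterin, was at 1163 and 765 CPM in cycling cells of Club-Tracer and BASC-Tracer, against 394 and 311 CPM, with 35.9% and 47.7% of its cycling UMIs in 1 cell, and at 214 CPM in those of AT2-Tracer, against 264 CPM. Plaur, the urokinase receptor, was at 98.0, 39.6 and 59.1 CPM, against 25.5, 25.6 and 17.6 CPM. Sprr1a, a cornified envelope gene of the transitional list, was at 0.629 CPM in BASC-Tracer cycling cells, against 50.6 CPM that came from 8 of 293 non-cycling cells.

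Of 22 lung transcription factors 13, 15 and 14 were measured, 3, 2 and 1 of these were lower (Klf4, Id3 and Hopx in Club-Tracer, Klf4 and Id3 in BASC-Tracer, Klf4 in AT2-Tracer) and none was higher, where 2.86%, 2.56% and 1.1% of all genes were lower. Of 22 Wnt, FGF and EGF genes 8, 10 and 10 were measured, with 0, 1 and 1 higher, where 12.3%, 5.59% and 5.37% of all genes were, and 1, 1 and 0 lower. Ereg, the EGF receptor ligand epiregulin, was at 90.2, 128 and 63.2 CPM in cycling AT2-led cells, against 43.5, 48.8 and 24.1 CPM, and Etv4, a target of FGF signalling that stayed under 50 CPM, at 44.3, 45.3 and 36.1 CPM, against 17.8, 13.6 and 11.7 CPM. Nkd1, a Wnt target that dampens the pathway, was at 44.3, 85.5 and 114 CPM, against 143, 244 and 214 CPM. Klf4, a factor linked to cell cycle arrest, was at 79.4, 89.3 and 119 CPM, against 237, 258 and 273 CPM. Nkx2-1, the master factor of lung epithelium, was at 142, 181 and 179 CPM, against 153, 214 and 200 CPM.

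Club genes were lower in cycling AT2-led cells. In Club-Tracer 6 of 9 measured were lower (median -1.64), in BASC-Tracer 5 of 9 (-1.09) and in AT2-Tracer 3 of 3 (-1.45). Of all genes 2.86%, 2.56% and 1.1% were lower. Any club gene that passed the 50 CPM limit only through the non-cycling cells had to be lower. Cbr2, a carbonyl reductase of club cells, was at 1915, 1001 and 441 CPM, against 8495, 4409 and 1213 CPM, while the free-RNA background held 393, 1083 and 182 CPM. Scgb1a1 was at 25357 and 11825 CPM in AT2-led cycling cells of Club-Tracer and BASC-Tracer, against 115467 and 26597 CPM in non-cycling cells. Cycling cells were also deeper, and the part of free RNA in these lower values was not tested.

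Across the libraries, which share no cells in these contrasts, 2662 genes were measured in all 3, and 104 of them were higher and 12 lower in every one. The 104 were 28.0%, 55.3% and 59.4% of the genes higher in the Club-Tracer, the BASC-Tracer and the AT2-Tracer library. Of these genes 39 were in the cell cycle lists. The 39 include the 5 rule genes, which non-cycling cells lack by definition, so their shared calls were fixed by the rule. The 12 lower genes, named after their values were seen, were Aox3, Cbr2, Cdkn1a, Ces1d, Cyp2b10, Klf4, Lyz2, Malat1, Nupr1, Ralgapa2, Scd1 and Ttc36. Several are enzymes of drug and aldehyde metabolism (Aox3, Cbr2, Ces1d, Cyp2b10). After scaling by the median, 78 genes were higher and 28 lower in all 3. Among the 65 shared higher genes outside the lists, chosen here after their values were seen, were the nuclear transport genes Ran (differences of 2.19, 1.75 and 1.86) and Ranbp1 (2.04, 1.38 and 1.63), the nucleolar gene Npm1 (1.39, 1.22 and 1.04), the polyamine enzyme Srm (2.20, 1.59 and 1.46), the serine synthesis enzyme Psat1 (2.16, 1.95 and 1.81) and the keratin Krt7 (2.26, 1.90 and 1.18).

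Club-led and transitional-led cycling cells were numerous enough for the same contrast in the Club-Tracer library only, and these contrasts were added after the values were seen. Between 23 cycling and 717 non-cycling club-led cells 422 of 2420 genes were apart (17.4%, median of all genes 0.40), 364 higher (15%) and 58 lower (2.4%), and 208 and 150 after scaling by the median. All 19 measured spindle genes were higher (median 3.91) and 3 of 10 club genes were lower (median -0.46). Scgb3a2 was at 13064 CPM in cycling club-led cells and 13659 CPM in non-cycling ones, whereas Cyp2f2 was at 3416 CPM, against 7579 CPM. Other differences rested on single cells: Agr2, a disulfide isomerase of mucous cells, was at 91.4 CPM, against 2.74 CPM, with 73.6% of its UMIs in 1 cell, and Foxj1, the master factor of motile cilia, at 152 CPM, against 4.47 CPM, with 98.3% in 1 cell.

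Between 21 cycling and 189 non-cycling transitional-led cells of Club-Tracer 608 of 3582 genes were apart (17%, median of all genes -0.02), 277 higher (7.73%) and 331 lower (9.24%). Cdkn1a was at 158 CPM, against 1021 CPM, and Hopx, an AT1 and progenitor factor, at 260 CPM, against 814 CPM. Of transitional genes none was higher and 3 of 10 were lower (median -0.59), of p53 targets 3 of 10 (-0.85) and of basal genes 3 of 4 (-2.43). Cldn4 was at 700 CPM, against 1698 CPM, Krt14, a basal keratin, at 10.3 CPM, against 101 CPM, and Krt8 at 2200 CPM, against 2435 CPM. Cell numbers on the cycling side were small, and only 4 of these 21 cells kept the transitional lead in all 10 draws.

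The 16 ciliated-led cells that passed the rule, 13 in Club-Tracer and 3 in BASC-Tracer, had an uneven set of rule genes, given as a description. They are called cycling by the rule alone, and whether they divide was not tested. Top2a and Cdk1 were seen in all 16, Mki67 in 9, Birc5 in 9 and Ube2c in 8. Pooled, they held 278 CPM of Top2a and 190 CPM of Cdk1 but 27.3 CPM of Mki67, 22.8 CPM of Birc5 and 22.8 CPM of Ube2c. In the AT2-led cells of AT2-Tracer, for comparison, Mki67 was at 364 CPM and Ube2c at 325 CPM.

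Their cell cycle genes were uneven. Ccnb1, the main mitotic cyclin, was at 71.4 CPM, Plk4, the kinase of centriole duplication, at 129 CPM and Ckap2l, a spindle protein, at 243 CPM, against 0, 6.83 and 3.01 CPM in 361 non-cycling ciliated-led cells of the same libraries. Ccna2, the cyclin of S phase and mitotic entry, was at 4.56 CPM, which is 3 UMIs, Pcna at 21.3 CPM, against 37.2 CPM, Mcm6 at 6.08 CPM, against 11.3 CPM, and Tk1, a thymidine kinase, at 3.04 CPM, against 2.61 CPM. Mitosis genes summed to 3465 CPM and replication genes to 703 CPM, a ratio of 4.93 (4.46 to 5.46), against 1.32 in their non-cycling counterparts. Ccnd1 was at 24.3 CPM, against 354 CPM.

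**Figure D5:**
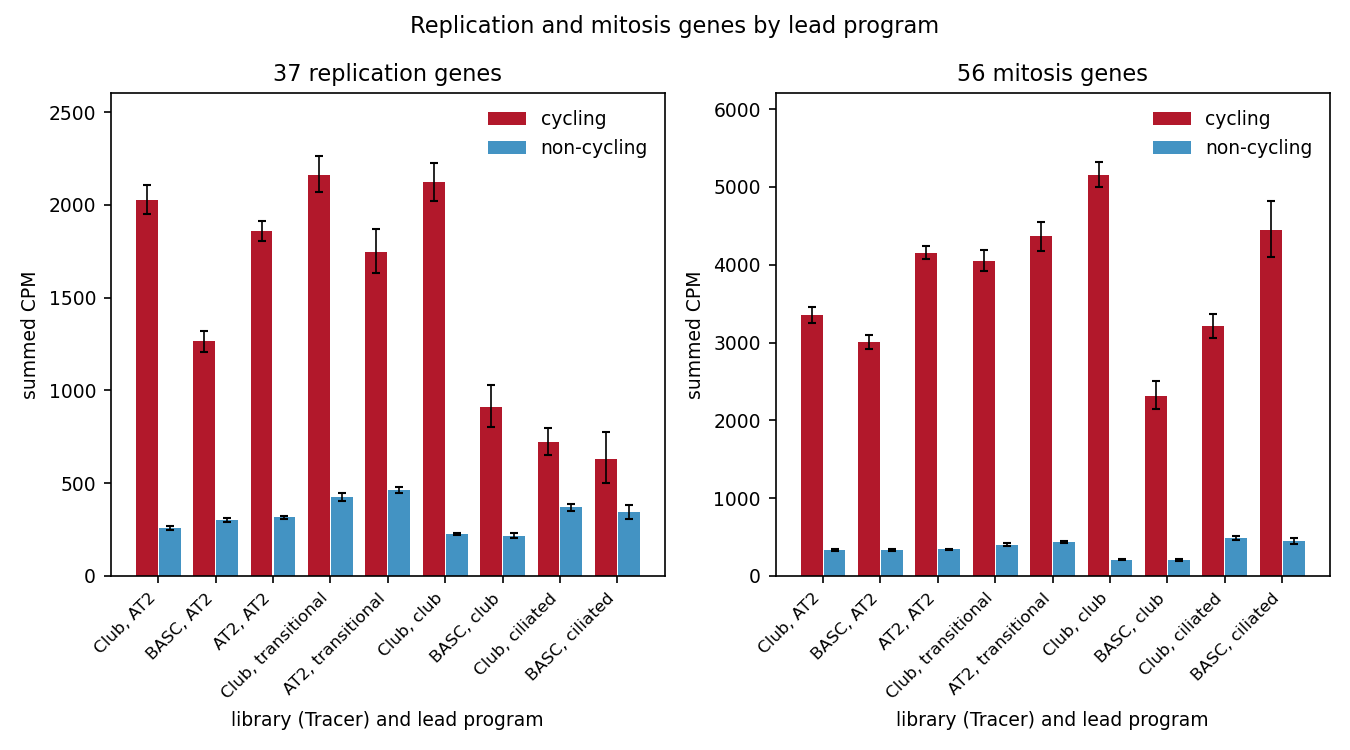
Summed CPM of 37 replication genes (left) and 56 mitosis genes (right) in cycling and non-cycling cells by library and lead program, with 95% Poisson intervals. Ciliated-led cells that passed the rule reach 3210 and 4452 CPM of mitosis genes in Club-Tracer and BASC-Tracer. They hold 723 and 629 CPM of replication genes, while AT2-led cycling cells hold 1264 to 2027 CPM of replication genes.

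Genes of centriole amplification and of the switch to multiciliation were high in the same cells. A list of 10 such genes was chosen after the values were seen and is a description. Mcidas, which starts the multiciliated program, was at 264 CPM, against 0.201 CPM, Ccno, a cyclin-like protein of the same locus, at 925 CPM, against 26.1 CPM, and Deup1, a scaffold of the deuterosome on which centrioles are multiplied, at 564 CPM, against 28.3 CPM. Cdc20b was at 252 CPM, against 0 in the non-cycling cells, whose limit for a count of 0 is 0.603 CPM. Myb, a factor of early multiciliated cells, was at 486 CPM, against 190.5 CPM, and Trp73 at 60.8 CPM, against 61.5 CPM. Before thinning, at unequal depth, at least 4 of the 10 genes were seen in 13 of 13 and 3 of 3 of these cells. They were seen in 48 of 309 (15.5%) and 12 of 52 (23.1%) non-cycling ciliated-led cells, and in 3 other cycling cells, all in Club-Tracer. After thinning, at least 2 of the genes were seen in 11 of 13 and 3 of 3 of the cells. Among non-cycling ciliated-led cells that held for 61 of 309 (19.7%) and 8 of 52 (15.4%). Summed, the list held 2920 CPM (2791 to 3053), against 360 CPM (344 to 378).

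Between the 16 cells and the 361, 1236 of 4471 genes were apart (27.6%, median of all genes 0.08), 556 higher (12.4%) and 680 lower (15.2%). The ciliated program itself was at a like level, summing to 7942 CPM, against 8279 CPM, with 0 higher and 2 of 10 lower. Foxj1 was at 1951 CPM, against 1033 CPM, and Tmem212 at 536 CPM, against 1708 CPM. Outside the lists the highest genes held several of the centriole, namely Poc1a at 339 CPM, against 9.64 CPM, Stil at 112 CPM, against 1.41 CPM, and Hyls1 at 179 CPM, against 4.02 CPM. Ccna1, the cyclin A best known from germ cells, was at 820 CPM, against 43.2 CPM, in 14 of the 16 cells. Ins1 and Ins2 were also among the 10 highest and came from 1 cell.

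The lower genes of the ciliated-led cells that passed the rule included detoxifying and antigen presentation genes. Cyp2a5, a cytochrome P450, was at 0 (limit 4.56 CPM), against 550 CPM, and Aoc1, an amine oxidase, at 0, against 289 CPM. The MHC class II list, of antigen presentation, summed to 47.1 CPM, against 1857 CPM, and the club list to 1670 CPM, against 15651 CPM. Scgb1a1 was higher, at 63268 CPM, against 7837 CPM, with 27.4% of its UMIs in 1 cell. The part of free RNA in these airway values was not tested.

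Between libraries the AT2 program of cycling cells differed, and some cell cycle genes did too. The Club-Tracer and BASC-Tracer cells were each set against the same AT2-Tracer cells, so the comparisons are not independent. Over all cycling cells 470 of 3420 genes were 2-fold apart between Club-Tracer and AT2-Tracer (13.7%; 201 higher, 5.88%, and 269 lower, 7.87%) and 140 of 3353 between BASC-Tracer and AT2-Tracer (4.18%; 87 higher, 2.59%, and 53 lower, 1.58%). Restricted to AT2-led cells the counts were 280 of 3279 (8.54%; 92 higher, 2.81%, and 188 lower, 5.73%) and 112 of 3339 (3.35%; 65 higher, 1.95%, and 47 lower, 1.41%). Over all cycling cells 8 of 10 AT2 program genes were lower in Club-Tracer (median -1.50) and none was apart in BASC-Tracer (-0.42). Of the rule genes, which chose the cells, Ube2c and Mki67 were lower in AT2-led cells of Club-Tracer, at 145 and 163 CPM, against 325 and 364 CPM in those of AT2-Tracer. Of 18 spindle genes measured over all cycling cells none was apart in Club-Tracer (median -0.20), and of 15 none was in BASC-Tracer (-0.50). Among replication genes Rrm2 alone was past 2-fold, at 33.7 CPM in BASC-Tracer cycling cells and 108 CPM in AT2-Tracer ones, and the BASC-Tracer medians were below 0 in all 7 cell cycle lists outside the rule (-0.58 to -0.20), where the median of all genes was -0.03.

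Hist1h2ae, a replication-dependent histone gene, was at 20.1 CPM in AT2-led cycling cells of BASC-Tracer, against 172 CPM in those of AT2-Tracer, and at 233 CPM in those of Club-Tracer, with the Club-Tracer value resting on 1 cell for 29.1%. Hist1h2ak was at 18.2 CPM in BASC-Tracer, against 140 CPM in AT2-Tracer.

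MHC class II genes were lower in AT2-led cycling cells of Club-Tracer than in those of AT2-Tracer. In Club-Tracer 5 of 5 measured were lower (median -1.96), and in BASC-Tracer 1 of 5 (-0.82), where 5.73% and 1.41% of all genes were lower. The list summed to 1077 CPM in Club-Tracer and 2435 CPM in BASC-Tracer cycling AT2-led cells, against 4322 CPM in AT2-Tracer ones. Background barcodes held 20546, 5206 and 6880 CPM. Those are leukocyte or endothelial barcodes, whose own MHC class II message cannot be told apart from free RNA here. Il33, an alarmin cytokine, was at 3.89 and 45.9 CPM in Club-Tracer and BASC-Tracer, against 177 CPM in AT2-Tracer. Bex4 was at 1.56 and 42.8 CPM, against 173 CPM, and Apoc1, an apolipoprotein, at 10.1 and 39.0 CPM, against 213 CPM. For each of these Club-Tracer was lowest, BASC-Tracer between and AT2-Tracer highest. Itih4 was at 0.778 and 14.5 CPM, against 94.8 CPM, with 91.3% of the BASC-Tracer UMIs in 1 cell.

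Genes higher in the libraries with tdTomato included Cd24a and Retnla. Cd24a, a surface protein of airway and immature epithelium, was at 314 and 179 CPM in AT2-led cycling cells of Club-Tracer and BASC-Tracer, against 13.1 CPM in AT2-Tracer. Retnla, a resistin-like secreted protein, was at 2555 and 2478 CPM, against 101 CPM, but 1 cell gave 61.6% and 52.2% of its UMIs. Lyz1 was at 1264 CPM in Club-Tracer, against 85.8 CPM, with 78.6% in 1 cell. Enho, which encodes adropin, was at 65.3 CPM in 19 of 35 Club-Tracer cells, against 0 in AT2-Tracer, whose limit is 1.23 CPM.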

How the data were processed

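Whole-lung cells sorted by reporter colour were captured by 10x droplets for 5′ expression profiling, as the labels' protocols say. The deposited matrices hold UMI counts, whole numbers per gene and barcode that were not normalized, made with Cell Ranger 6.1.1 on build mm10, per the submitters' processing notes. Which gene annotation was used is not stated there. Each matrix lists 32287 features, of which 2 are reporter transcripts, tdT and ZsGFP.

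The members, lists and contrasts were chosen with earlier results of these data known. Barcodes were kept at 500 or more genes and at most 15% mitochondrial UMIs. Cycling cells followed the 3-of-5 gene rule, non-cycling cells had 0 of the 5 genes, and background barcodes had no Epcam, had Ptprc or both Pecam1 and Cdh5, and had fewer than 3 rule genes (28, 100 and 1439 in the Club-Tracer, the BASC-Tracer and the AT2-Tracer library). Doublets were scored per library with Scrublet in scanpy 1.11.5. Its automatic threshold marked 0.0300%, 0.139% and 1.68% of barcodes. As the first 2 shares are under 0.5%, the highest scores were marked in those libraries at 0.8% per 1000 barcodes (89 and 17), and 102 barcodes were marked in AT2-Tracer. Marked barcodes stayed in and were left out as an alternative.

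Counts were summed per group and given as CPM with exact Poisson intervals, shares with exact Clopper-Pearson intervals (scipy 1.17.1). Limits for a count of 0 are 3 counts of the total. For lead programs each cell was thinned to 3000 UMIs with a fixed seed. With 1 library per lineage no p-value was computed. Genes named outside the lists were the 10 highest and 10 lowest per comparison at 50 CPM and 30 UMIs on the higher side, without mitochondrial, ribosomal, hemoglobin, unnamed, sex-linked, immunoglobulin and T cell receptor genes. From each list the 2 highest and 2 lowest members could be named, beside members whose role is described. The comparisons of club-led, transitional-led and ciliated-led cells were added after seeing the data. The ciliated-led one pools 2 libraries and has fewer than the 20 cycling cells asked of the other comparisons. Promoters came from RefSeq (GRCm38.p6). Alternatives varied the gene minimum, mitochondrial limit, number of rule genes, depth, lists, margin, CPM minimum, pseudocount, scaling and doublets. A gene of the club list is not reported here by name.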

Additional observations from a re-analysis of the deposited data

How the results depend on the processing

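Of 133 alternative values computed for the shares and counts, 106 kept close to the value given and 27 moved. Asking for 4 of the 5 rule genes gave cycling shares of 3.03%, 2.5% and 1.80% for the Club-Tracer, the BASC-Tracer and the AT2-Tracer library, and the rule after thinning to 3000 UMIs gave 1.37%, 1.23% and 1.28%. Among lead programs 4 Club-Tracer values moved past their counting intervals. The AT2 lead was 41.0% with no margin, the club lead 12% after thinning to 1500 UMIs, and the share with no lead was 29.9% with Sftpc and Scgb1a1 in the lists and 0% with no margin. Within their wide intervals, but by over 1.5 times, the BASC-Tracer transitional and club leads were 3.85% and 5.77% after thinning to 1500 UMIs, and the AT2-Tracer transitional lead was 7.48% with Sftpc and Scgb1a1 in the lists. Counts of genes 2-fold apart depended on the CPM minimum. At 100 and at 20 CPM they were 273 and 771 for cycling over non-cycling AT2-led cells in Club-Tracer, 140 and 495 in BASC-Tracer, and 111 and 397 in AT2-Tracer. They were 236 and 836 for Club-Tracer over AT2-Tracer cycling cells, 72 and 315 for BASC-Tracer over AT2-Tracer, and 147 and 509, and 56 and 223, for the same pairs in AT2-led cells. A pseudocount of 20 CPM gave 286 in Club-Tracer AT2-led cells, and 184 and 67 in the AT2-led pairs of libraries. The alternatives that leave out ciliated-led cells or use another thinning draw were added after seeing the data. No paired analysis was possible because each lineage had 1 library, and no replicate could be left out. Depth limits the rule, since the shares of cells that met it were lower after thinning in all 3 libraries.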
